A study of Mus musculus with 6 samples.

Results

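The 10 genes described here form the switch that commits a cell to divide in the G1 phase of the cycle, and they were taken by name from the 21033 genes of the count table. They are the D cyclins Ccnd1, Ccnd2 and Ccnd3, their kinases Cdk4 and Cdk6, the kinase inhibitors Cdkn2a, Cdkn2b, Cdkn2c and Cdkn1b, and Rb1. Their transcripts were counted in primary fibroblasts from the synovium, the tissue that lines joints, of arthritic mice of the hTNFtg genotype, in which a transgene supplies human TNF. The cells came from ankles, had been cultured for 3 passages, and were given either 10 µM compound 33 or the vehicle DMSO for 48 h, with 3 libraries per treatment. Both treatments share the transgene, and no cells without it were compared. The labels give no age, strain or sex and do not say whether the 3 libraries of a treatment came from separate animals or cultures, so a p-value here reflects the scatter of 3 libraries against 3, some or all of which may be technical. The comparison asks which genes of activated fibroblasts differ after compound 33, a molecule that the series title ties to the chaperone Hyou1.

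Growth factors induce D cyclins, which bind CDK4 or CDK6 and direct them to the retinoblastoma protein RB. Phosphorylation of RB frees E2F transcription factors, which switch on the genes of DNA replication. Proteins of the INK4 family occupy CDK4 and CDK6 and keep D cyclins from activating them. Among them, INK4A, a product of Cdkn2a, accumulates in cultured fibroblasts as the cells approach senescence. The tissue expansion of the arthritic joint, called pannus, consists in part of fibroblasts, so their division has long been studied in this disease.

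The compound 33 libraries held 1594052 to 2384850 reads and the DMSO libraries 1913730 to 2897207. All 12 fibroblast markers examined were detected in the cells, among them Col1a1, Pdgfra, Thy1 and Pdpn, and their summed level was 12863 to 14819.8 counts per 1000000 reads (CPM) with compound 33 and 15327 to 16381 CPM with DMSO. The 12 did not move as 1, with 3 estimated higher with compound 33 and 9 lower. Singly, the treatments did not overlap for Pdgfrb, which was higher, and for Thy1 and Lum, which were lower. Among all tested genes, 13.4% did not overlap. Of 12 leukocyte markers, Cd3e and Cd79a had no read, and the sum was 53.5 to 105 CPM with compound 33 and 63.6 to 139 CPM with DMSO, most of it Lyz2 and Cd14. Of 8 endothelial markers, Pecam1 and Tie1 had no read, and the sum was 5.50 to 10.4 CPM with compound 33 and 2.44 to 3.71 CPM with DMSO. None of these 8 had enough reads to be tested. Their sums rest on few reads, Tek having 7, 17 and 4 with compound 33 and 4, 1 and 3 with DMSO. Of 8 muscle and mural markers, the sum was 28.6 to 37.9 CPM with compound 33 and 18.5 to 26.0 CPM with DMSO, most of it Cspg4. Of 8 cartilage and bone markers, Acan and Ibsp had no read, and the sum was 112 to 163 CPM with compound 33 and 81.7 to 167 CPM with DMSO. The fibroblast, endothelial and mural sums thus did not overlap between the treatments, and their part in the values below was not tested.

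The count of Cdkn2a pools a pair of products, which matters for reading its level. The gene has 2 coding transcripts in GENCODE M21 on mm10, which start at different exons and encode unrelated proteins, the kinase inhibitor INK4A and the p53 activator ARF. The first 30 coding bases of each are shown 5′ to 3′ with the start codon in capitals, from the minus strand of chr4:89282082-89282111 for INK4A and of chr4:89294494-89294523 for ARF.
Cdkn2a-201 (INK4A): ATGgagtccgctgcagacagactggccagg
Cdkn2a-202 (ARF): ATGggtcgcaggttcttggtcactgtgagg
Downstream of these starts the transcripts share 575 exon bases, 67.5% of the first and 64.2% of the second, and their annotated 3′ ends lie 70 bases apart. The libraries were read from the 3′ end of transcripts, so INK4A and ARF are counted together.

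Among the D cyclins, the regulatory subunits that respond to growth factors, the level of Ccnd1 differed most between treatments. Ccnd1 stood at 441, 403 and 387 CPM in the compound 33 libraries, against 168, 295 and 242 CPM in the DMSO libraries. Every compound 33 library was above every DMSO library. The mean was 410.3 ± 28.1 CPM with compound 33 and 235 ± 63.8 CPM with DMSO (SD, n = 3 each), a log2 fold change of 0.80 (SE 0.23, 95% interval 0.30 to 1.30). In edgeR's quasi-likelihood test across all 10124 tested genes, Ccnd1 had an unadjusted p of 0.00403 and an adjusted p of 0.486, so it did not pass. A p at least as low was found for 82 of the tested genes (0.81%). The estimate was 0.61 without DMSO replicate 1, the library with the lowest level, and 1.01 without DMSO replicate 2. Without DMSO replicate 1 its unadjusted p was 0.0110.

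Ccnd2, the D cyclin with the highest level, stood at 1500.2, 1165 and 1402 CPM in the compound 33 libraries, against 1313, 871 and 1426 CPM in the DMSO libraries. The treatments overlapped widely, with DMSO replicate 2 the lowest library. Ccnd2 ranked 78 of the 10124 tested genes by mean level. Its log2 fold change was 0.17 (95% interval -0.34 to 0.69, edgeR adjusted p = 0.937). Ccnd3 stood at 271, 298 and 344 CPM in the compound 33 libraries, against 398, 297 and 289 CPM in the DMSO libraries. Here DMSO replicate 1 was the highest library and compound 33 replicate 1 the lowest, so the treatments overlapped. Its log2 fold change was -0.11 (95% interval -0.57 to 0.35, edgeR adjusted p = 0.956).

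**Figure D1:**
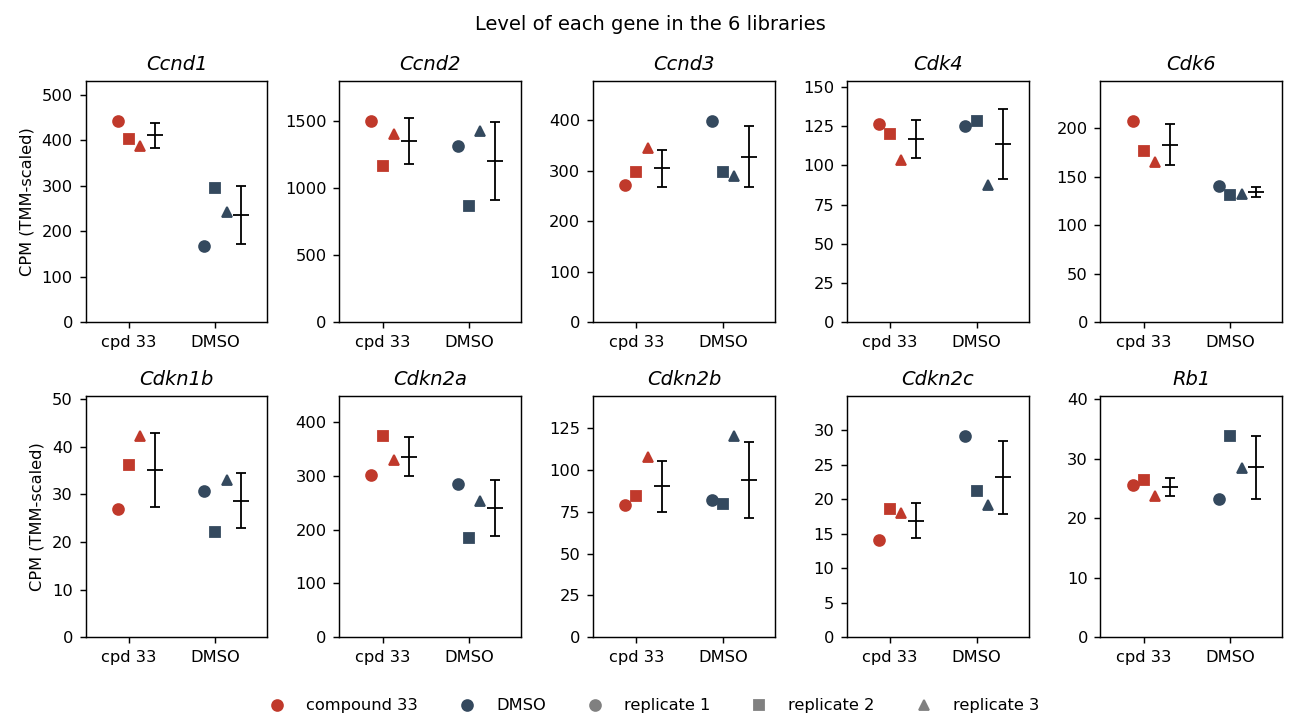
Level of each of the 10 genes in CPM (y axes, linear from 0) in the compound 33 libraries (red, marked cpd 33) and the DMSO libraries (dark blue), 1 symbol per library by replicate number, with mean and SD as bars. Ccnd1, Cdk6 and Cdkn2a lie higher in all compound 33 libraries and Cdkn2c lies lower in all of them, while the other 6 genes overlap.

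A share of reads inside 1 library does not depend on how libraries are scaled. Ccnd1 held 19.9%, 21.6% and 18.1% of D cyclin reads in the compound 33 libraries, against 8.92%, 20.1% and 12.4% in the DMSO libraries. The treatments overlapped in this share, since DMSO replicate 2 exceeded 2 of the 3 compound 33 libraries. The mean difference was 6.08 percentage points, 9.24 without DMSO replicate 2 and 3.63 without DMSO replicate 1. Ccnd2 held most of the D cyclin reads in every library, 62.4% to 67.8% with compound 33 and 59.6% to 72.8% with DMSO. The order of the 2 lesser D cyclins was turned round between the treatments, a feature singled out after the values were seen. Ccnd1 gave 61.9%, 57.5% and 52.9% of the combined Ccnd1 and Ccnd3 reads in the compound 33 libraries, against 29.6%, 49.8% and 45.6% in the DMSO libraries. Ccnd1 was thus ahead of Ccnd3 in all 3 compound 33 libraries, and in DMSO replicate 2 they were level, at 653 and 658 reads (exact 95% interval of the Ccnd1 share 47.1% to 52.6%). Intervals on shares cover counting error only, and no test was made of these shares.

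Of the kinases that D cyclins activate, Cdk6 had the larger estimate of a difference. Cdk6 stood at 207, 177 and 166 CPM in the compound 33 libraries, against 141, 131 and 133 CPM in the DMSO libraries. The DMSO libraries lay within a narrow range, and all compound 33 libraries were above it. The mean was 183 ± 21.5 CPM with compound 33 and 135 ± 5.16 CPM with DMSO (SD, n = 3 each), a log2 fold change of 0.44 (SE 0.20, 95% interval 0.02 to 0.87). The unadjusted p of edgeR was 0.0428 and the adjusted p 0.720, so Cdk6 did not pass, and the unadjusted p reached 0.167 without compound 33 replicate 1. Cdk4 stood at 127, 120 and 103 CPM in the compound 33 libraries, against 125, 128 and 87.7 CPM in the DMSO libraries. Its levels were intermixed, with replicate 3 the lowest library of each treatment. The log2 fold change of Cdk4 was 0.04 (95% interval -0.44 to 0.52, edgeR adjusted p = 0.984). Cdk6 gave 62.1%, 59.5% and 61.6% of the combined reads of both kinases in the compound 33 libraries, against 52.9%, 50.5% and 60.2% in the DMSO libraries. DMSO replicate 3 reached the range of the compound 33 libraries.

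**Figure D2:**
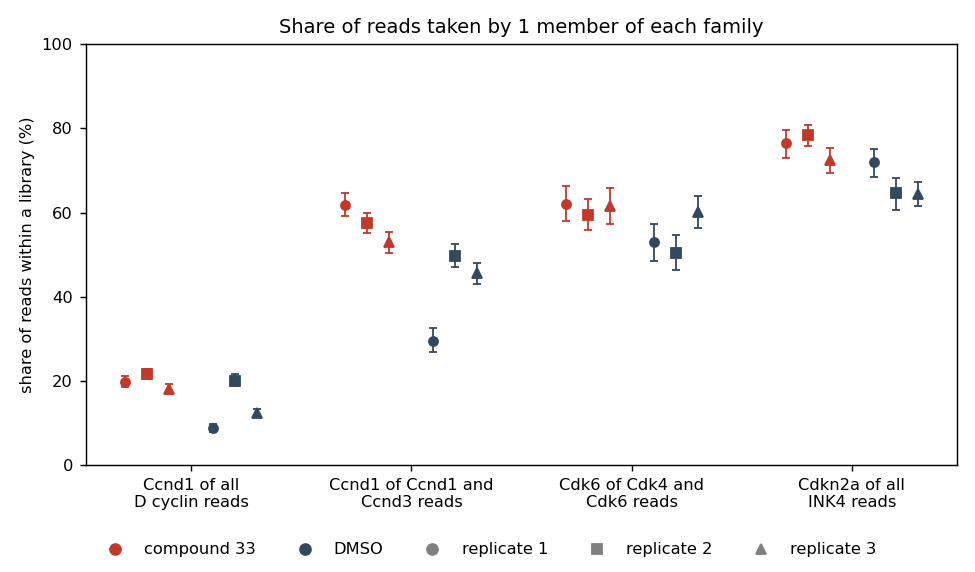
Share of reads within a library in percent (y axis, 0 to 100) taken by 1 gene of a family, for each compound 33 library (red) and DMSO library (dark blue), with exact 95% binomial intervals. The Ccnd1 share of Ccnd1 and Ccnd3 reads is 52.9% to 61.9% with compound 33 and 29.6% to 49.8% with DMSO, while the Ccnd1 share of all D cyclin reads and the Cdk6 share overlap. INK4 reads are those of Cdkn2a, Cdkn2b and Cdkn2c, without Cdkn2d.

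The estimates for the inhibitors pointed in both directions. Cdkn2a stood at 302, 374 and 329 CPM in the compound 33 libraries, against 285, 184 and 253 CPM in the DMSO libraries. Every compound 33 library was above every DMSO library, by a small step between compound 33 replicate 1 and DMSO replicate 1. The mean was 335 ± 36.1 CPM with compound 33 and 240.5 ± 51.7 CPM with DMSO (SD, n = 3 each), a log2 fold change of 0.48 (SE 0.22, 95% interval 0.01 to 0.95). Its unadjusted p in edgeR was 0.0477 and its adjusted p 0.720, so Cdkn2a did not pass, and without DMSO replicate 2 the unadjusted p was 0.173. Since INK4A and ARF are counted together, the values do not say which of them differs.

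Cdkn2b, which encodes the inhibitor INK4B and lies beside Cdkn2a on chromosome 4, stood at 78.9, 84.2 and 108 CPM in the compound 33 libraries, against 82.2, 79.4 and 120.1 CPM in the DMSO libraries. Replicate 3 was the highest library of each treatment and the others were intermixed. Its log2 fold change was -0.06 (95% interval -0.57 to 0.45, edgeR adjusted p = 0.976). Cdkn2c, which encodes the inhibitor INK4C, was the member with the fewest reads, 23, 45 and 35 in the compound 33 libraries, against 55, 47 and 55 in the DMSO libraries. That amounts to 14.1, 18.7 and 18.0 CPM with compound 33 and 29.2, 21.2 and 19.1 CPM with DMSO, every compound 33 library lying below every DMSO library. The step between compound 33 replicate 2 and DMSO replicate 3 was small. Its log2 fold change was -0.44 (SE 0.28, 95% interval -1.05 to 0.18), with an unadjusted p of 0.148 and an adjusted p of 0.834 in edgeR. Within the reads of Cdkn2a, Cdkn2b and Cdkn2c, Cdkn2a held 76.5%, 78.4% and 72.4% in the compound 33 libraries, against 71.9%, 64.6% and 64.5% in the DMSO libraries. The share of Cdkn2c was 3.56%, 3.92% and 3.96% in the compound 33 libraries, against 7.36%, 7.46% and 4.88% in the DMSO libraries. The share of Cdkn2b overlapped between the treatments, at 17.7% to 23.6% with compound 33 and 20.7% to 30.6% with DMSO. The 3 shares divide the same reads, so they do not vary independently. In the shares of Cdkn2a and Cdkn2c the treatments did not overlap, but the exact 95% intervals of the nearest libraries did. For Cdkn2a they were 69.3% to 75.3% in compound 33 replicate 3 and 68.5% to 75.1% in DMSO replicate 1. For Cdkn2c they were 2.77% to 5.46% in compound 33 replicate 3 and 3.70% to 6.31% in DMSO replicate 3. Cdkn2d, another INK4 gene, is not a member and is left out of these shares. It had 72, 152 and 85 reads in the compound 33 libraries, against 50, 112 and 107 in the DMSO libraries. The absence of overlap in the Cdkn2a share rests on leaving Cdkn2d out.

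Cdkn1b encodes p27, an inhibitor outside the INK4 family that blocks cyclin E with CDK2 and is held by cyclin D complexes. It stood at 26.9, 36.1 and 42.2 CPM in the compound 33 libraries, against 30.8, 22.1 and 33.1 CPM in the DMSO libraries. The treatments overlapped, and its log2 fold change was 0.29 (95% interval -0.28 to 0.86, edgeR adjusted p = 0.892). Rb1, the target of the kinases, stood at 25.7, 26.5 and 23.7 CPM in the compound 33 libraries, against 23.3, 33.8 and 28.5 CPM in the DMSO libraries. The compound 33 libraries lay inside the DMSO range. Its log2 fold change was -0.18 (95% interval -0.71 to 0.36, edgeR adjusted p = 0.937). Reads per library were 44 to 87 with compound 33 and 49 to 95 with DMSO for Cdkn1b, and 42 to 64 with compound 33 and 44 to 82 with DMSO for Rb1.

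**Figure D3:**
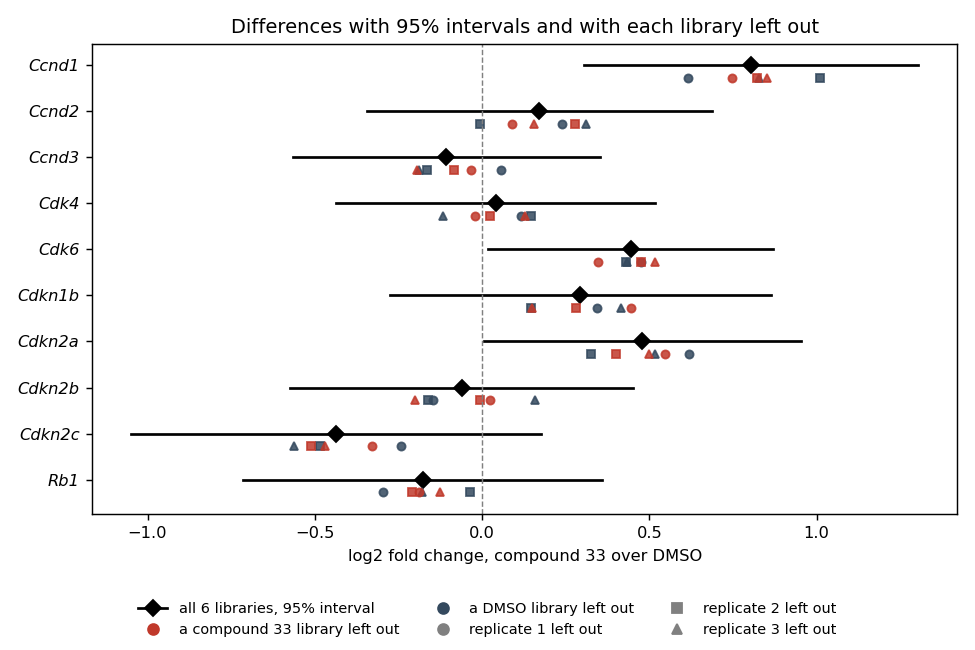
Log2 fold change of compound 33 over DMSO (x axis) for the 10 genes, with all 6 libraries (diamonds, 95% intervals) and with each library left out in turn (coloured symbols under each line). The interval lies above 0 for Ccnd1, Cdk6 and Cdkn2a before any adjustment over genes, and the estimates of Ccnd2, Ccnd3, Cdk4 and Cdkn2b change sign when particular libraries are left out.

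All 10 genes passed the filter on low counts, and none passed edgeR's test over all genes, where 3 of 10124 genes passed (0.0296%). At an unadjusted p under 0.05 there were 3 members, Ccnd1, Cdk6 and Cdkn2a, all higher with compound 33, where 6.87% of all tested genes lay under that value, 3.64% higher and 3.23% lower. The treatments did not overlap for 4 members, 3 higher and 1 lower, against 13.4% of all tested genes, 6.64% higher and 6.73% lower. These 4 did not overlap under any of the 4 library scalings tried. The log2 fold change was positive for 6 members, where 48.9% of all tested genes were positive, and its median was 0.11 over the members and -0.01 over all tested genes. The members were chosen by name with earlier results of these libraries known, so these counts are a description.

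Of the genes with an adjusted p in the authors' deposited table, 18 (0.179%) lie under 0.05, and none is a member. For Ccnd1 the authors' deposited table has 0.80 on the log2 scale (SE 0.24), with p = 0.000927 before and 0.183 after adjustment. For Cdk6 the authors' deposited table has an adjusted p of 0.863, and for Cdkn2a 0.852. No member passed in DESeq2 run on the deposited counts (0.131% of genes passed), in limma-voom (0.0198%) or in edgeR without a low-count filter (0.141%). For the members, the log2 fold changes of this DESeq2 run equal the deposited ones to within 1e-13, so it repeats the authors' comparison. Its adjusted p for Ccnd1 was 0.25.

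The positions on mm10 bear on which reads could be counted for a gene. Ccnd1 occupies 144929931 to 144939925 of chromosome 7 (minus strand), and exons of Oraov1 (LTO1 in GENCODE M21) on the opposite strand cover all of the last 500 bases of its transcript. Oraov1 stood at 44.6, 34.4 and 41.2 CPM in the compound 33 libraries, against 33.9, 27.5 and 36.6 CPM in the DMSO libraries, overlapping and well below Ccnd1. Whether reads were counted by strand was not stated, so how reads from the overlap were assigned or dropped is not known. The same holds for the overlapped part of Cdk4 with Tspan31 and of Ccnd3 with Bysl. Tspan31 overlaps 37.0% of the transcript ends of Cdk4, and Bysl 15.4% of those of Ccnd3. Stretches of 50 bases shared in the same orientation with another annotated gene made up 6.01% of the ends of Ccnd3, from its pseudogene. They made up 2.54% of those of Cdk6, 1.27% of those of Cdk4 and none of those of the other 7 genes. Matches to the opposite strand, such as the overlap of Ccnd1 with Oraov1, were not counted in these shares. Cdk6 occupies 3341485 to 3531008 of chromosome 5 (plus strand). Cdkn2a and Cdkn2b occupy 89274471 to 89294653 and 89306299 to 89311039 of chromosome 4 (minus strand). All 10 are protein coding.

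Among 27 other genes of G1 control, such as the E cyclins, CDK2, the RB relatives and the E2F factors, 24 were tested and 0 passed in edgeR, DESeq2 or limma-voom. At an unadjusted p under 0.05 in edgeR there was 1 of the 24, where 6.87% of all tested genes lay under that value. It was E2f1, the transcription factor that RB restrains. E2f1 stood at 189, 208 and 188 CPM in the compound 33 libraries, against 84.3, 136 and 143 CPM in the DMSO libraries. All compound 33 libraries were above all DMSO libraries, and DMSO replicate 1, the library lowest in Ccnd1, was also lowest in E2f1. Its log2 fold change was 0.68 (SE 0.23, unadjusted p = 0.0110, adjusted p = 0.587), and 0.48 without DMSO replicate 1. Cdkn1a, the p53 target p21, averaged 469 ± 81.8 CPM with compound 33 and 461 ± 85.8 CPM with DMSO (SD, n = 3 each). Ccne1, or cyclin E1, averaged 36.6 ± 2.04 CPM with compound 33 and 45.9 ± 11.9 CPM with DMSO (SD, n = 3 each, edgeR adjusted p = 0.881). The median log2 fold change of the 24 genes was -0.05, with 10 positive and 14 negative, where 48.9% of all tested genes were positive. Without overlap, 2 of the 24 were higher and 1 lower, against 6.64% and 6.73% of all tested genes.

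Of 16 genes that govern the breakdown of D cyclins and p27, all were tested and 0 passed in edgeR, DESeq2 or limma-voom, and their median log2 fold change was 0.06. The 1 under an unadjusted 0.05 in edgeR was Ubac1, a subunit of a ubiquitin ligase for p27, at 61.7, 66.3 and 54.0 CPM in the compound 33 libraries, against 100.7, 85.7 and 76.9 CPM in the DMSO libraries. The treatments did not overlap, and its log2 fold change was -0.53 (SE 0.22, edgeR adjusted p = 0.697). Of all tested genes, 6.87% lay under an unadjusted 0.05 in edgeR. Without overlap, 0 of the 16 were higher and 3 lower, against 6.64% and 6.73% of all tested genes. Of 20 transcription factors and chromatin proteins that act on D cyclin or INK4 genes, 17 were tested and 0 passed in edgeR, DESeq2 or limma-voom, with a median log2 fold change of 0.01. Here Ets1, a factor downstream of growth factor signals, had the only unadjusted p under 0.05 in edgeR. It stood at 52.0, 43.9 and 56.1 CPM in the compound 33 libraries, against 28.1, 36.1 and 39.3 CPM in the DMSO libraries, without overlap, and its log2 fold change was 0.55 (SE 0.24, adjusted p = 0.717). Without overlap, 2 of the 17 were higher and 0 lower, against the same shares of all tested genes. Myc, a growth factor target that promotes G1 progress, averaged 8.89 ± 2.36 CPM with compound 33 and 9.72 ± 6.07 CPM with DMSO (SD, n = 3 each). Fos and Mycn were too low to be tested.

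The 20 genes that E2F factors switch on for DNA replication and mitosis were all tested, and 0 had an unadjusted p under 0.05 in edgeR or passed in edgeR, DESeq2 or limma-voom. Of all tested genes, 6.87% had an unadjusted p under 0.05 in edgeR. The median log2 fold change of the 20 was -0.08, with 8 positive and 12 negative, where 48.9% of all tested genes were positive. Cdk1, the kinase of mitosis, stood at 169, 138 and 63.8 CPM in the compound 33 libraries, against 96.5, 181 and 119 CPM in the DMSO libraries. Top2a, which untangles DNA during replication, stood at 118, 103 and 60.7 CPM in the compound 33 libraries, against 132, 90.7 and 68.2 CPM in the DMSO libraries. The spread within a treatment exceeded the difference between treatments for both. Summed over the 20 genes, the level was 1163, 1142 and 623 CPM in the compound 33 libraries, against 991, 1146 and 824 CPM in the DMSO libraries. Replicate 3 was the lowest of each treatment, and compound 33 replicate 3 was lowest of all. In bulk RNA, fewer dividing cells and less RNA per dividing cell cannot be told apart.

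**Figure D4:**
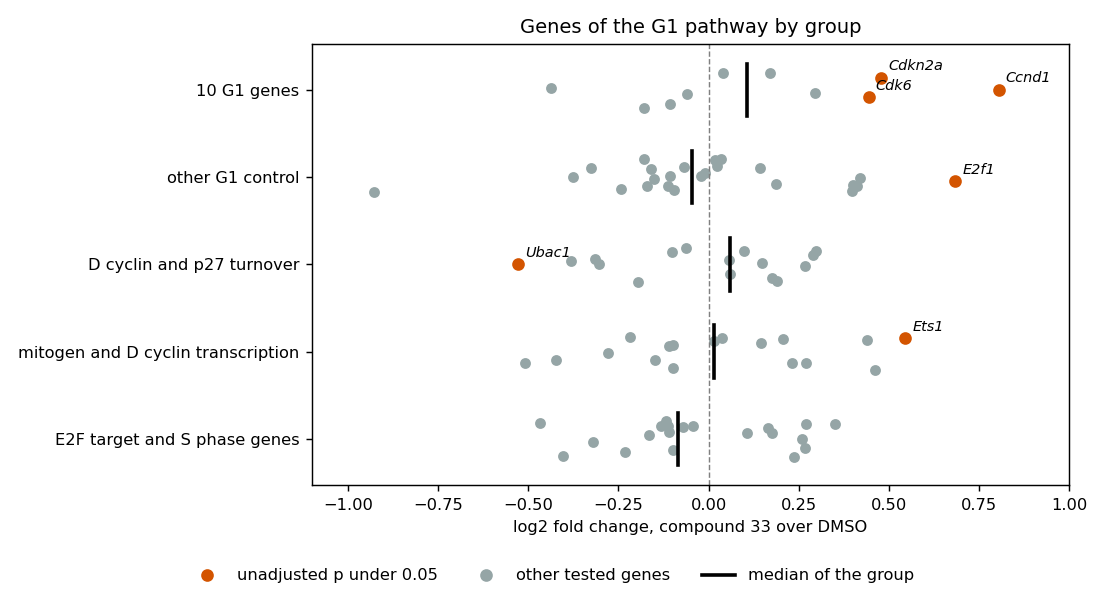
Log2 fold change of compound 33 over DMSO (x axis) for the tested genes of the 5 groups (rows), with genes under an unadjusted p of 0.05 in edgeR in orange and named, and the median of each group as a black bar. The medians lie between -0.08 and 0.11, and no group had a gene that passed after adjustment over all genes.

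The genes whose pattern over the 6 libraries was nearest to that of Ccnd1 were Xrcc1, Nufip1, Enpp5, Slc2a6 and Mrpl45, among 6664 genes of at least 20 CPM on average. Nearness was the root mean square difference of log2 CPM after each gene was centred on its own mean, and it was 0.08 for Xrcc1 and 0.12 for Mrpl45. Xrcc1, a scaffold of DNA strand break repair, stood at 37.3, 31.5 and 28.8 CPM in the compound 33 libraries, against 13.8, 21.7 and 19.5 CPM in the DMSO libraries. Slc2a6, a sugar transporter, stood at 39.7, 34.0 and 39.1 CPM in the compound 33 libraries, against 14.8, 24.4 and 19.1 CPM in the DMSO libraries. All 5 genes, being chosen for their likeness to Ccnd1 in these libraries, had DMSO replicate 1 as their lowest library, as Ccnd1 did. The list describes these 6 libraries, and no test was made of the likeness.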

How the data were processed

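Per the labels' protocols, library preparation used QuantSeq 3′ chemistry, which yields reads near transcript ends, and an Ion Proton sequencer. Levels were therefore not divided by gene length. Tools listed in the submitters' processing notes are HISAT2 2.2.1, featureCounts 2.0.3, FastQC 0.11.9 and DESeq2, with the build mm10. The annotation and whether reads were counted by strand are not stated there. The authors deposited raw read counts per gene, without normalization. The authors' deposited comparison holds a mean normalized count (a signal), log2 fold changes and standard errors, a Wald score, and p-values. Values of single genes were taken from it for the members only, and its adjusted p-values also gave the count of genes under 0.05. No per-sample column was left out.

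The analysis of the counts used edgeR 4.0.16 in R 4.3.3. The default filterByExpr (minimum count 10) kept 10124 genes with at least 99.4% of the reads of each library, and TMM scaled the libraries. The quasi-likelihood F test with robust estimation, two-sided, had treatment as its only term and was adjusted by Benjamini-Hochberg over all tested genes (threshold 0.05). Fold changes are unshrunk, the SE is the log2 fold change over the square root of F, and the typical variation between libraries beyond counting noise was 23.6%. Scripts were tested on simulated data. Replicate pairs differed by more than counting noise (chi-square per degree of freedom 4.34 to 17.6), so none was treated as a duplicate deposit of another. This does not show that they came from separate cultures. No batch or date is labelled.

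Named genes were the 10 members, from each pathway list those that passed, otherwise up to 4 with the smallest unadjusted p under 0.05, otherwise the 2 most abundant, and the 5 genes nearest to the member with the smallest p. Cdkn1a, Ccne1, Myc, Oraov1, Tspan31 and Bysl were named besides. The members and lists were chosen with earlier results of these data known. Alternatives were other scalings and filters, a non-robust edgeR fit, limma-voom (limma 3.58.1), DESeq2 1.42.0, a replicate block, and leaving out each library.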

Additional observations from a re-analysis of the deposited data

How the results depend on the processing

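None of the 10 genes passed under any of the 15 alternatives. Over all genes, 3 passed in the reported test, against 21 without a low-count filter, 18 in DESeq2 and 7 with the replicate block, and 1 to 7 with each library left out. The cause was not tested. With the replicate number as a block, Ccnd1 had a log2 fold change of 0.84. The labels do not say whether the numbers pair the samples. Deviations of same-numbered libraries correlated at -0.03, 0.21 and 0.08 across genes, and those of differently numbered libraries at -0.23 to 0.15. With 3 libraries per treatment, these values cannot decide it. Other scalings, filters and tools left the sign of every member as reported, with Ccnd1 between 0.79 and 0.84. With each library left out, Ccnd1 ranged from 0.61 to 1.01, Cdk6 from 0.35 to 0.52 and Cdkn2a from 0.33 to 0.62. Estimates near 0 changed sign in these fits, Ccnd2 ranging from -0.0074 to 0.31, Ccnd3 from -0.20 to 0.0561, Cdk4 from -0.12 to 0.15, Cdkn2b from -0.20 to 0.16, Cdk1 from -0.39 to 0.22 and Top2a from -0.25 to 0.24. An unadjusted p under 0.05 held in all 16 fits for Ccnd1 and in 10 of 16 for Cdk6 and for Cdkn2a. The mean difference of the Ccnd1 share of D cyclin reads ranged from 3.63 to 9.24 percentage points. Cdkn2c, Rb1 and Cdkn1b had the fewest reads of the members, 23 to 95 per library, and how far depth limits their estimates was not tested.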
